A study of Mus musculus with 18 samples.

Results

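Alveolar type 2 cells make the fatty acids and phospholipids of lung surfactant, and 39 genes of that supply line were followed here through 6 culture conditions in mouse cells. The genes were given by name, for their place in fatty acid synthesis, desaturation, elongation, activation and phosphatidylcholine synthesis, and all 39 were found among the 52636 genes listed in the deposited tables. The filter on low counts kept 38 of them. The one removed, Elovl3, an elongase of very long fatty acids, had 0 counts in 17 libraries and 0.0940 CPM, counts scaled to library size, in the remaining one. RNA sequencing was done on 3 libraries in each of 6 groups. LGK974 is an inhibitor of porcupine that stops cells from releasing their own Wnt ligands. The sample titles name it, in full or as LGK, except those of the withdrawal groups described below. Whether those groups had it cannot be read from their titles. The cells had been cultured for 19 days with CHIR99201, spelled as in the labels and called CHIR below, a small molecule that the series names as a Wnt agonist. In the control group LGK974 was combined with CHIR. A pair of groups had CHIR withdrawn for 24 h or 48 h. In the last 3 groups CHIR was replaced by Wnt (WNT below), by an agonist of the receptor Fzd5 (FZD5 agonist) or by one of Fzd6 (FZD6 agonist). The labels give treatment times of 8 to 12 h, but neither the doses nor the time that ligand-treated cells had spent without CHIR, so each ligand was compared with both withdrawal times. They name lung, alveolar type 2 cells and no animal, strain, sex or age, and where the 3 libraries of a group came from is not said. A p-value here therefore measures only the spread between libraries, which may be technical.

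In the alveolar type 2 cell, citrate leaves the mitochondrion, is cleaved to acetyl-CoA, carboxylated to malonyl-CoA and built into palmitate by fatty acid synthase. Desaturases and elongases turn palmitate into longer and unsaturated chains, and acyl-CoA synthetases activate them for use. The chains are placed on a glycerol backbone to give phosphatidic acid and diacylglycerol, which joins activated choline to form phosphatidylcholine. Lpcat1 then helps to make the saturated phosphatidylcholine that lowers surface tension in the alveolus. The transcription factor SREBP1, encoded by Srebf1, drives many of these genes by binding sterol regulatory elements next to sites for NF-Y, whose core is CCAAT.

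Promoter letters are shown first because SREBP1 targets are often described by them. RefSeq windows of 300 bases on GRCm38.p6, from 250 before to 50 after an annotated start, were at hand for 32 of the 39 genes, in 47 windows. Fads1, Dgat2, Elovl3, Scd1, Scd2, Fabp5 and Dgat1 had none. Not all windows lie where the gene begins. The only windows of Acaca and Acacb begin at chr11:84195188 and chr5:114165268. In GENCODE M21 these genes begin at 84129672 and 114146535, and the letters there were not examined. On either strand, a sterol regulatory element spelled TCACNCCAC or TCACNCCAT was found in 3 of the 47 windows and in 1.98% of 32851 windows of all genes. These 3 belong to 2 of the 32 genes, Pcyt1a and Acsl1, since 2 overlapping Pcyt1a windows hold the same site. CCAAT was found in 23 of the 47 windows and in 37.4% of all windows. The E-box CACGTG was found in 5 windows (7.15% of all windows). A TCF/LEF motif spelled CTTTGAT or CTTTGAA was found in 2 windows, of Elovl6 and Pemt (8.65% of all windows). Printed below are Fasn, whose window has 3 CCAAT matches on either strand with 2 of them overlapping, Pcyt1a, with a sterol regulatory element, and Gpam, whose level varied most between libraries of those printed. Capitals mark sterol regulatory elements and CCAAT on either strand, and each sequence runs 5′ to 3′ on the strand of its gene. Fasn lies at chr11:120824498-120824797 (minus strand), Pcyt1a at chr16:32430671-32430970 (plus strand) and Gpam at chr19:55127189-55127488 (minus strand).
Fasn: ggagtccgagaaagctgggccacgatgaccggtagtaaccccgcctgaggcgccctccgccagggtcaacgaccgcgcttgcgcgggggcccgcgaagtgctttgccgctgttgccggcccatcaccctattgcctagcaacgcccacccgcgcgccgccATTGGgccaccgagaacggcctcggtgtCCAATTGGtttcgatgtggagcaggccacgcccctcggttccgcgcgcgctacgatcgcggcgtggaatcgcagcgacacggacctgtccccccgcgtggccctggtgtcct
Pcyt1a: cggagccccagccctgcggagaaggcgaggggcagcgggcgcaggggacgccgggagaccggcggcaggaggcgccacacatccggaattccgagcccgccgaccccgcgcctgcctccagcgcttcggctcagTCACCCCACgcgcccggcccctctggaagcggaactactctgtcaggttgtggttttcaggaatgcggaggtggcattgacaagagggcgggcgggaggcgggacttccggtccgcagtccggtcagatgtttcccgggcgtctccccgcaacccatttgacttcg
Gpam: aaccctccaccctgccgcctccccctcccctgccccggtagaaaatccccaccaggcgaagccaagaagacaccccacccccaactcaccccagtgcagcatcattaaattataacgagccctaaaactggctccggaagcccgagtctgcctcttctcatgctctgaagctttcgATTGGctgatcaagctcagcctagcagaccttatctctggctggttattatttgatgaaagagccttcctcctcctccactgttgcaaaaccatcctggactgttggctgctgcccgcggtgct
These matches describe the letters of the windows, and binding was not measured.

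Libraries CHIR 1, CHIR 3, 24 h withdrawal 2 and FZD6 agonist 1 stand apart from the other 14. Their median correlation with all libraries was 0.782 to 0.950, against 0.966 to 0.982 in the 14, and total counts over all 18 ran from 31509607 to 52030066. The 0.966 belonged to CHIR 2, and the next lowest of the 14 was 48 h withdrawal 2 at 0.978. The part of the CHIR treatment in these correlations was not tested. Of the 38 tested genes, 31 had their lowest level in one of these 4 libraries, 19 of them in 24 h withdrawal 2 and 11 in CHIR 1. The share of all genes with their lowest level there was not counted. Relative to the median of the 14, the median log2 shift over the 38 genes was -1.33 in 24 h withdrawal 2 and -0.83 in CHIR 1, where the median over all 16497 tested genes shifted by -0.28 and -0.02. In CHIR 3 and FZD6 agonist 1 the shifts of the 38 genes were -0.21 and -0.01. In 24 h withdrawal 2, 23 of the 38 genes and 37.2% of all genes had a shift below -1. In CHIR 1 these were 14 and 21.8%, in CHIR 3 8 and 16.5%, and in FZD6 agonist 1 4 and 13.5%. Acaca, Acacb, Fasn, Srebf1, Scd2, Fads1, Fads2, Gpam, Pcyt1a and Lpcat1 were lower in each of the 4 libraries than in any of the 14, and Agpat2 was higher. How many of all genes lay in this way was not counted. The library 24 h withdrawal 2 also held 4.13% mitochondrially encoded counts, against 0.271% to 0.718% elsewhere, and 31.3% of its reads lay outside gene counts, against 11.7% to 15.5%. Malat1 and Neat1 made up 7.86% of its counts, against 0.168% to 0.533%, and 16846 genes had counts, against 19224 to 21528. Over the 38 genes, shift and gene length had Spearman correlations of -0.39 (24 h withdrawal 2), -0.36 (CHIR 1), -0.51 (CHIR 3) and -0.43 (FZD6 agonist 1). In 24 h withdrawal 1, of the 14, it was -0.46. Over all 16497 tested genes the same correlations were -0.25, -0.37, -0.10 and 0.02 in the 4 libraries, in that order. In the 14 they ran from -0.22 to 0.27. Summed markers of club and secretory cells were at 675, 890 and 1030 CPM in 24 h withdrawal 2, CHIR 3 and FZD6 agonist 1, CHIR 1 had 46.5 CPM, against 47.1 to 658 CPM in the 14. The part of these differences in the results below was not tested, so each result is given first for the 18 libraries and then for the 14, where the CHIR group is CHIR 2 alone and is assumed to vary like the other groups.

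All 14 alveolar type 2 markers on the list used here were detected, with a summed level of 74251 CPM (CHIR 2) to 171896 CPM (24 h withdrawal 2), so the label of the cells was borne out by their RNA. Alveolar type 1 markers were present too, at a sum of 4581 to 10694 CPM. Markers of endothelium and adipocytes each summed to at most 0.143 CPM and those of fibroblasts and lipofibroblasts to at most 0.861 CPM in any library. Basal cell markers summed to at most 0.109 CPM except in CHIR 3, where they had 3.03 CPM, and in FZD6 agonist 1, where they had 12.6 CPM, and ciliated cell markers to at most 22.9 CPM. On the list of macrophages and blood, Marco was at 0 in all libraries and Lyz1 carried nearly all of the sum, at 234 to 418 CPM after 48 h, 219 to 406 CPM with WNT, 546 to 1148 CPM after 24 h, 975 to 1139 CPM with the FZD5 agonist, 1289 to 2197 CPM with CHIR and 1279.9 to 6154 CPM with the FZD6 agonist. In bulk RNA such as this, fewer cells of a type and less RNA per cell cannot be told apart.

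Divided by gene length, the 38 genes spanned several orders of magnitude. Scd1, the stearoyl-CoA desaturase that makes oleate and palmitoleate, stood first with a mean level over the 18 libraries of 10206 TMM-scaled CPM per kilobase. Elovl1, an elongase of saturated very long chains, and Scd2, a second stearoyl-CoA desaturase, followed at 1642 and 1084. Next came Lpcat1 at 660.4, Fabp5, a carrier of fatty acids in the cytosol, at 344, Fasn at 305, Acly at 304 and the acyl-CoA synthetase Acsl5 at 292. On the same scale Acaca, the carboxylase that feeds fatty acid synthase, was at only 3.11, Elovl6, which extends palmitate to stearate, at 2.09 and Pcyt1b, the minor isoform of the choline pathway enzyme Pcyt1a, at 0.0938. Scd1 alone made up most of the summed CPM of the 39 genes in the 14 libraries, where the sum lay between 58670 and 99756 CPM.

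**Figure D1:**
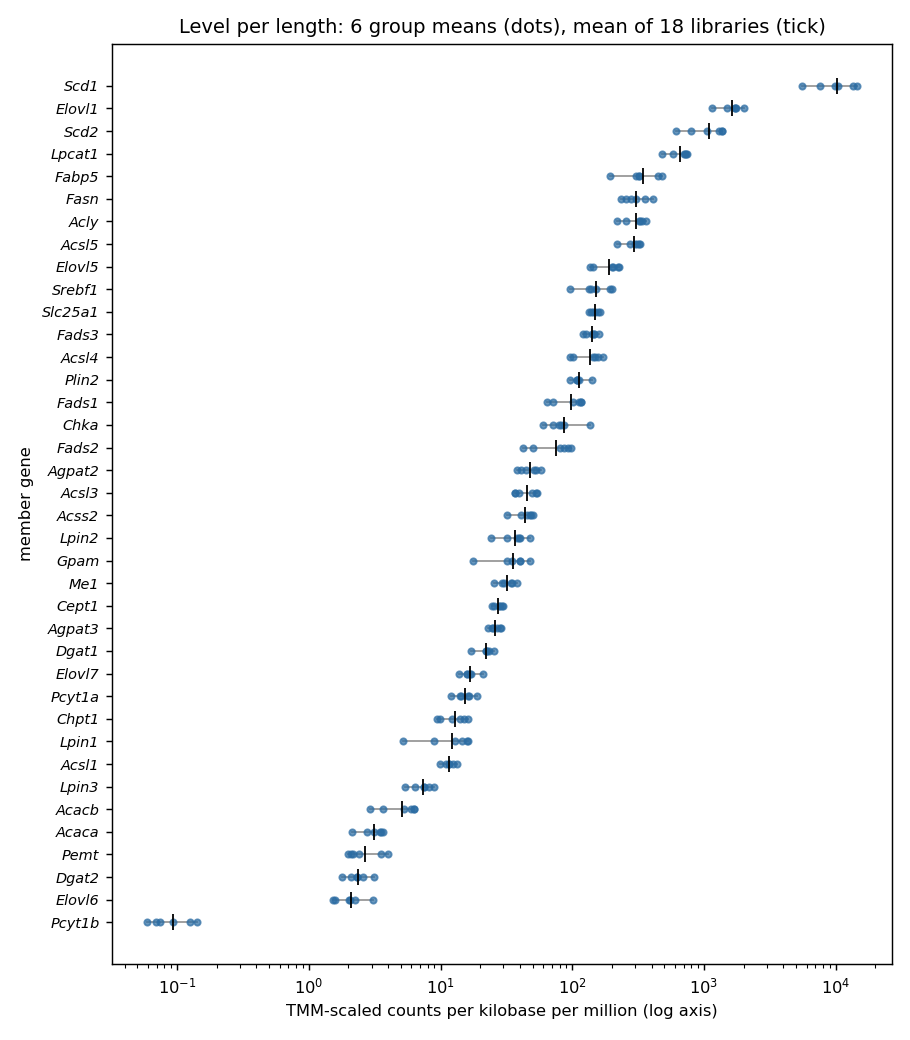
Level per length of the 38 tested genes (TMM-scaled CPM per kilobase, log axis). Dots are the 6 group means, the tick is the mean of the 18 libraries, and genes are ordered by that mean from Scd1 at the top to Pcyt1b at the bottom.

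The first steps of the pathway make cytosolic acetyl-CoA and palmitate. Fasn (GRCm38 position in GENCODE M21, chromosome 11, 120805846 to 120824547, minus strand; all positions here use that build), fatty acid synthase, was at 791, 5309 and 904 CPM in CHIR libraries 1 to 3, at 3423, 356 and 3941 CPM after 24 h of withdrawal and at 3189, 2859 and 3095 CPM after 48 h. With ligand it was at 2745, 2838 and 2798 CPM (WNT), 3187, 5232 and 3895 CPM (FZD5 agonist) and 1885, 4342 and 4457 CPM (FZD6 agonist). Among the 14 libraries, the 6 of 48 h withdrawal and WNT were low, at 2745 to 3189 CPM, with FZD5 agonist 1 as the only other library in that range, and CHIR 2 was the highest. Acly, which cleaves citrate, was at 863, 1627 and 1029 CPM with CHIR, 1283, 295 and 1459.7 CPM after 24 h and 1694, 1641 and 1680.3 CPM after 48 h. It was at 1610.1, 1630.0 and 1447 CPM with WNT, 1345, 1653 and 1514 CPM with the FZD5 agonist and 1338, 1519.7 and 1593 CPM with the FZD6 agonist. The 3 lowest values belonged to 24 h withdrawal 2, CHIR 1 and CHIR 3, and the other 15 libraries lay within 1283 to 1694 CPM. Acaca was at 19.7, 33.5 and 7.07 CPM with CHIR, 30.5, 13.4 and 35.6 CPM after 24 h and 36.8, 31.2 and 31.2 CPM after 48 h. It was at 33.6, 36.1 and 31.6 CPM with WNT, 31.2, 40.4 and 32.1 CPM with the FZD5 agonist and 16.4, 36.3 and 36.7 CPM with the FZD6 agonist. Outside the 4 libraries that stand apart, all groups overlapped for Acaca, at 30.5 to 40.4 CPM. In those 14 libraries Acacb, the carboxylase whose malonyl-CoA restrains fatty acid oxidation, ran from 35.6 to 76.9 CPM. Me1, which makes NADPH, ran from 92.5 to 141 CPM, Acss2, which makes acetyl-CoA from acetate, from 120.2 to 213 CPM and Slc25a1, the citrate carrier, from 221 to 292 CPM.

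Srebf1 (chromosome 11, 60199089 to 60222581, minus strand) had 129.7, 636 and 475 CPM in the CHIR libraries, 662, 359 and 707 CPM after 24 h and 837, 819 and 911 CPM after 48 h of withdrawal. It was at 811, 821 and 849.8 CPM with WNT, 589, 739 and 607 CPM with the FZD5 agonist and 463, 668 and 667 CPM with the FZD6 agonist. The 6 libraries of 48 h withdrawal and WNT were the highest of the 18, and no other library reached them. Scd1 (chromosome 19, 44394455 to 44407879, minus strand) was likewise highest in those 2 groups, at 73231, 67783 and 69014 CPM after 48 h and 66734, 67225 and 60806 CPM with WNT. It was at 35711, 40704 and 34099 CPM with CHIR, 35019, 5259.7 and 40452 CPM after 24 h, 41683, 50557 and 49579.7 CPM with the FZD5 agonist and 52789, 46190.5 and 51529.7 CPM with the FZD6 agonist. Again the 6 libraries of 48 h withdrawal and WNT lay above all 12 others, which reached 52789 CPM at most. Scd2 did not: in the 14 libraries it was at 6059 CPM with CHIR, 6174 to 6286 CPM after 24 h and 6798 to 7819 CPM in the other 4 groups. The share of all genes with the order of Srebf1 and Scd1 was not counted. Against CHIR alone, 14.5% of all tested genes lay higher without overlap after 48 h and 13.5% with WNT. Fads1 and Fads2, the delta-5 and delta-6 desaturases of polyunsaturated fatty acids, were lowest after 24 h among the 14, at 295 to 299.9 and 91.6 to 97.3 CPM. In the other groups of the 14 they were at 348 to 423 and 123 to 159 CPM. Fads3, a related desaturase, was at 322 CPM in CHIR 2 and 422 to 555 CPM in the other 13.

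Elongases differed among themselves. Elovl6 was at 23.1, 23.8 and 10.2 CPM with CHIR, 11.8, 1.902 and 14.3 CPM after 24 h and 9.498, 10.2 and 9.51 CPM after 48 h. It was at 13.1, 12.1 and 12.8 CPM with WNT, 15.1, 15.2 and 11.1 CPM with the FZD5 agonist and 11.9, 12.3 and 12.7 CPM with the FZD6 agonist. CHIR 1 and CHIR 2 were the highest of all libraries for this gene, and CHIR 3 was not. Elovl1 was lowest in FZD5 agonist 1 and CHIR 2, at 1562 and 2004 CPM, and was at 3771 to 4102 CPM with WNT. Elovl5, which extends polyunsaturated chains, was at 349.7 CPM in CHIR 2, 507 to 518 CPM after 24 h without library 2, 537 to 581 CPM with either agonist in the 14 and 609 to 635 CPM in the 48 h and WNT groups. For Elovl5 the values of these 4 sets did not overlap, and how many of all genes were so ordered was not counted. The libraries left out of the sets were at 291 CPM (CHIR 1), 565 CPM (CHIR 3), 108 CPM (24 h withdrawal 2) and 599.5 CPM (FZD6 agonist 1).

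Long-chain fatty acids are used only once an acyl-CoA synthetase has activated them. Acsl1 was at 34.5, 46.4 and 73.96 CPM with CHIR, 42.3, 52.5 and 51.6 CPM after 24 h and 43.8, 50.95 and 49.8 CPM after 48 h. It was at 46.5, 43.9 and 48.4 CPM with WNT, 41.2, 40.7 and 42.3 CPM with the FZD5 agonist and 82.3, 44.1 and 39.98 CPM with the FZD6 agonist. Its 2 highest values were those of FZD6 agonist 1 and CHIR 3, and the 14 libraries overlapped at 39.98 to 51.6 CPM. Acsl3, found on lipid droplets, was at 130.3 to 163 CPM in the 48 h and WNT groups and at 173 to 233 CPM in the other 8 of the 14. Acsl4, which prefers arachidonate, was at 619 CPM in CHIR 2 and 655 to 999 CPM in the other 13, and Acsl5 ran from 1068 to 1442 CPM over the 14.

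Gpam (chromosome 19, 55067268 to 55127238, minus strand), which puts the first acyl chain on glycerol 3-phosphate, was at 32.1, 139 and 30.3 CPM with CHIR, 202, 0.388 and 168 CPM after 24 h and 176, 126 and 157 CPM after 48 h. It was at 141, 184 and 140.2 CPM with WNT, 154, 211 and 185 CPM with the FZD5 agonist and 35.1, 183 and 179.6 CPM with the FZD6 agonist. Its 4 lowest values were those of the 4 libraries that stand apart, and the other 14 overlapped. Lpin1 (chromosome 12, 16535669 to 16610966, minus strand), a phosphatidic acid phosphatase that gives diacylglycerol, was at 19.1, 44.4 and 33.2 CPM with CHIR, 72.3, 33.9 and 59.7 CPM after 24 h and 103, 80.6 and 89.3 CPM after 48 h. It was at 92.2, 111 and 97.3 CPM with WNT, 81.5, 115 and 97.4 CPM with the FZD5 agonist and 50.03, 94.1 and 94.98 CPM with the FZD6 agonist. All 3 CHIR libraries lay below every library of 48 h withdrawal, WNT and the agonists. Of all tested genes, 14.5% (48 h withdrawal), 13.5% (WNT), 12.4% (FZD5 agonist) and 5.66% (FZD6 agonist) lay above CHIR without overlap. Lpin2, a second enzyme of that family, was at 129 CPM in CHIR 2, 181 to 195 CPM after 24 h, 209 to 246 CPM with either agonist, 245 to 257 CPM with WNT and 287 to 312 CPM after 48 h, over the 14. Lpin3 ran from 22.2 to 30.97 CPM there, and the acyltransferases Agpat2 and Agpat3, which add the second chain, from 50.4 to 70.5 and from 143 to 197 CPM.

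Phosphatidylcholine is made from choline by Chka, a choline kinase, by Pcyt1a, the enzyme that sets the rate, and by the last-step enzymes Chpt1 and Cept1. Pcyt1a (chromosome 16, 32430921 to 32475070, plus strand) had 45.9, 90.5 and 46.4 CPM in the CHIR libraries, 88.5, 21.8 and 107 CPM after 24 h and 73.1, 90.04 and 81.6 CPM after 48 h. It was at 70.4, 75.7 and 65.4 CPM with WNT, 105, 90.5 and 91.01 CPM with the FZD5 agonist and 64.9, 93.1 and 90.1 CPM with the FZD6 agonist. The 3 WNT libraries and 1 of 48 h withdrawal held the 4 lowest values of Pcyt1a among the 14. Chka was at 115, 205 and 354 CPM with CHIR, 178, 709.5 and 182 CPM after 24 h and 191, 234 and 198 CPM after 48 h. It was at 187, 143 and 142 CPM with WNT, 197, 171 and 187 CPM with the FZD5 agonist and 289.6, 171 and 178 CPM with the FZD6 agonist. Unlike Pcyt1a, Chka had its highest values in 24 h withdrawal 2, CHIR 3 and FZD6 agonist 1. Lpcat1 (chromosome 13, 73467197 to 73516422, plus strand) had 1240.1, 2386 and 1822 CPM in the CHIR libraries, 2605, 1109 and 2819.9 CPM after 24 h and 2754, 2856 and 2792 CPM after 48 h. It was at 2699, 2715 and 2644 CPM with WNT, 2570.1, 2854 and 2866 CPM with the FZD5 agonist and 2236, 2799 and 2916 CPM with the FZD6 agonist. The 14 libraries held Lpcat1 within 2386 to 2916 CPM, a narrow span for this set. Chpt1 was at 63.2 CPM in CHIR 2, 84.4 to 85.3 CPM after 24 h and 116 to 129.8 CPM in the 48 h and WNT groups. With the FZD5 agonist it was at 139, 92.4 and 104 CPM, library 1 being the highest of all, and with the FZD6 agonist at 104 to 107 CPM in the 14. Cept1 ran from 62.1 to 92.2 CPM over the 14. Pemt, which makes phosphatidylcholine by methylation, mainly in liver, stayed between 1.86 and 5.53 CPM in all 18 libraries, and Pcyt1b did not exceed 1.43 CPM.

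Fabp5 (chromosome 3, 10012548 to 10016607, plus strand) had 142, 207 and 220.0 CPM in the CHIR libraries, 338, 359 and 252 CPM after 24 h and 444, 456 and 430.4 CPM after 48 h. It was at 509, 437 and 468 CPM with WNT, 294, 311 and 345 CPM with the FZD5 agonist and 258, 307 and 334 CPM with the FZD6 agonist. The 3 CHIR libraries were the lowest of the 18 and the 6 of 48 h withdrawal and WNT the highest, so that those groups did not overlap. Of all tested genes, 14.5% lay higher without overlap after 48 h than with CHIR, and 13.5% lay so with WNT. Plin2, which coats lipid droplets, was at 344, 213 and 242 CPM with CHIR, 226, 167 and 223 CPM after 24 h and 199, 154 and 189 CPM after 48 h. It was at 191, 219 and 204 CPM with WNT, 186, 207 and 223 CPM with the FZD5 agonist and 209, 223 and 204 CPM with the FZD6 agonist. Apart from CHIR 1 and CHIR 3, the groups overlapped for Plin2. Dgat1 and Dgat2, the last enzymes of triglyceride synthesis, ran from 28.7 to 46.6 and from 2.995 to 7.24 CPM over the 14.

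**Figure D2:**
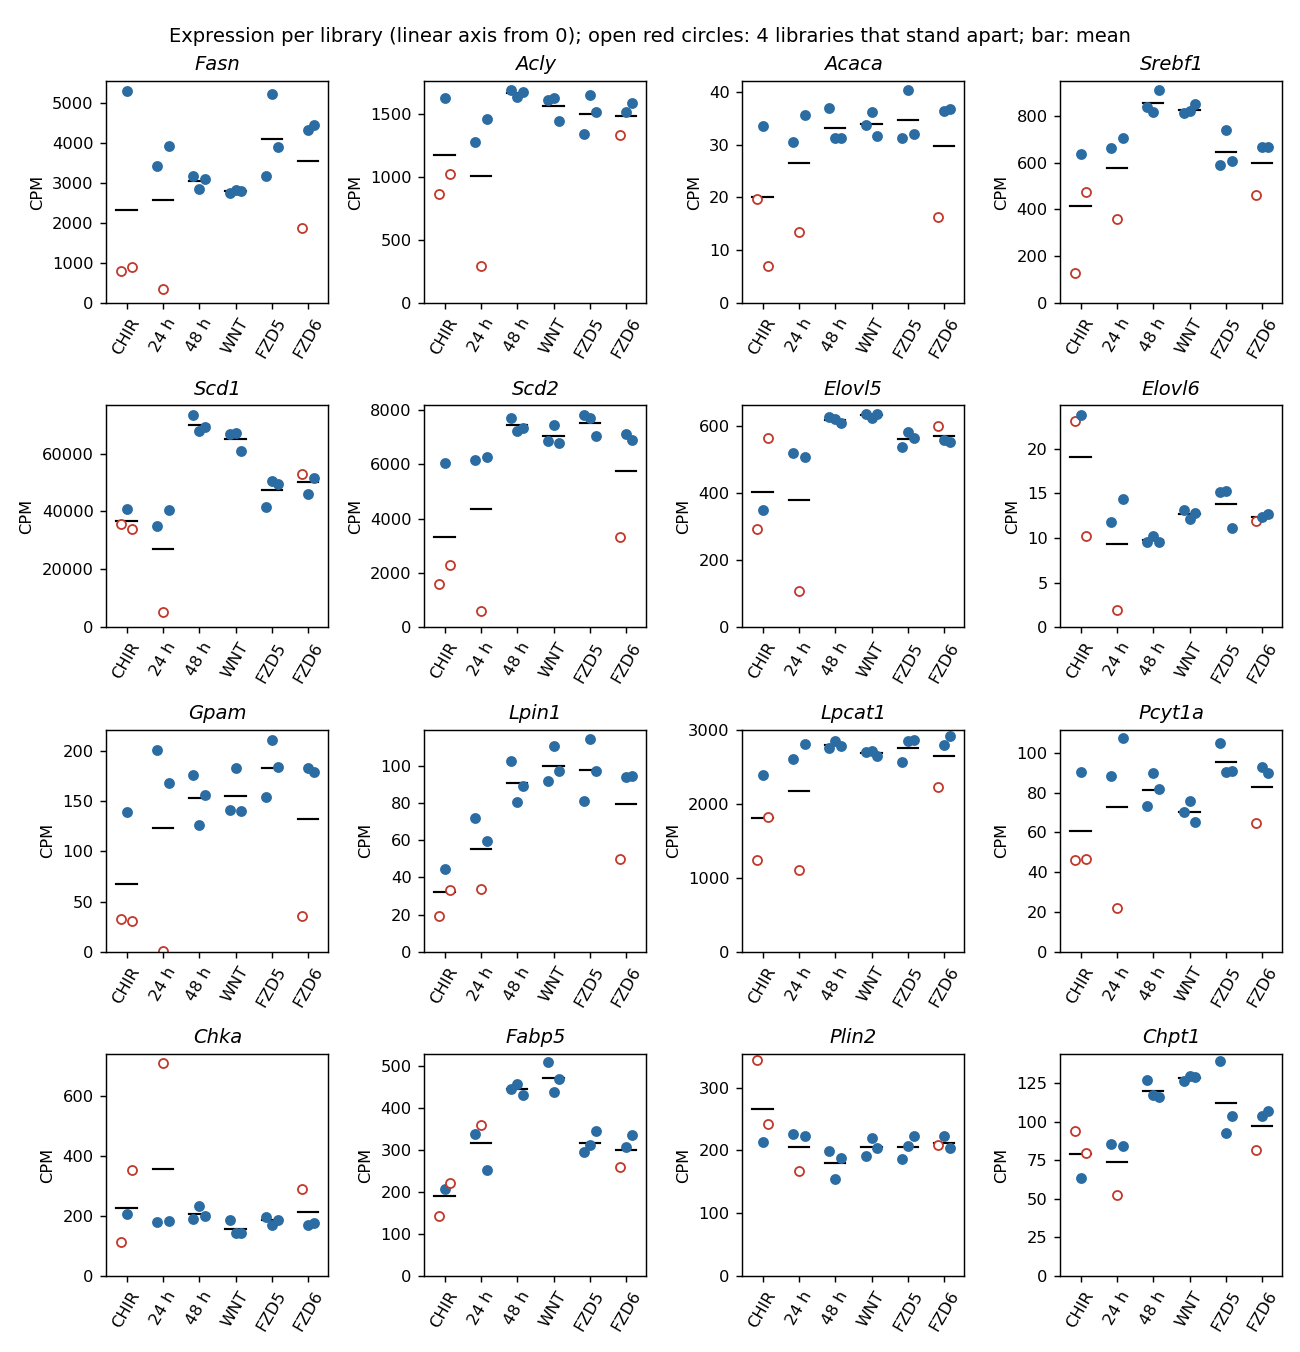
Expression of 16 of the genes in every library (CPM on TMM-scaled library sizes, linear axis from 0, 3 libraries a group, bar at the group mean). Open red circles are the 4 libraries that stand apart. Scd1, Srebf1 and Fabp5 are highest in the 48 h and WNT groups, and Gpam is lowest in the open circles.

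**Figure D3:**
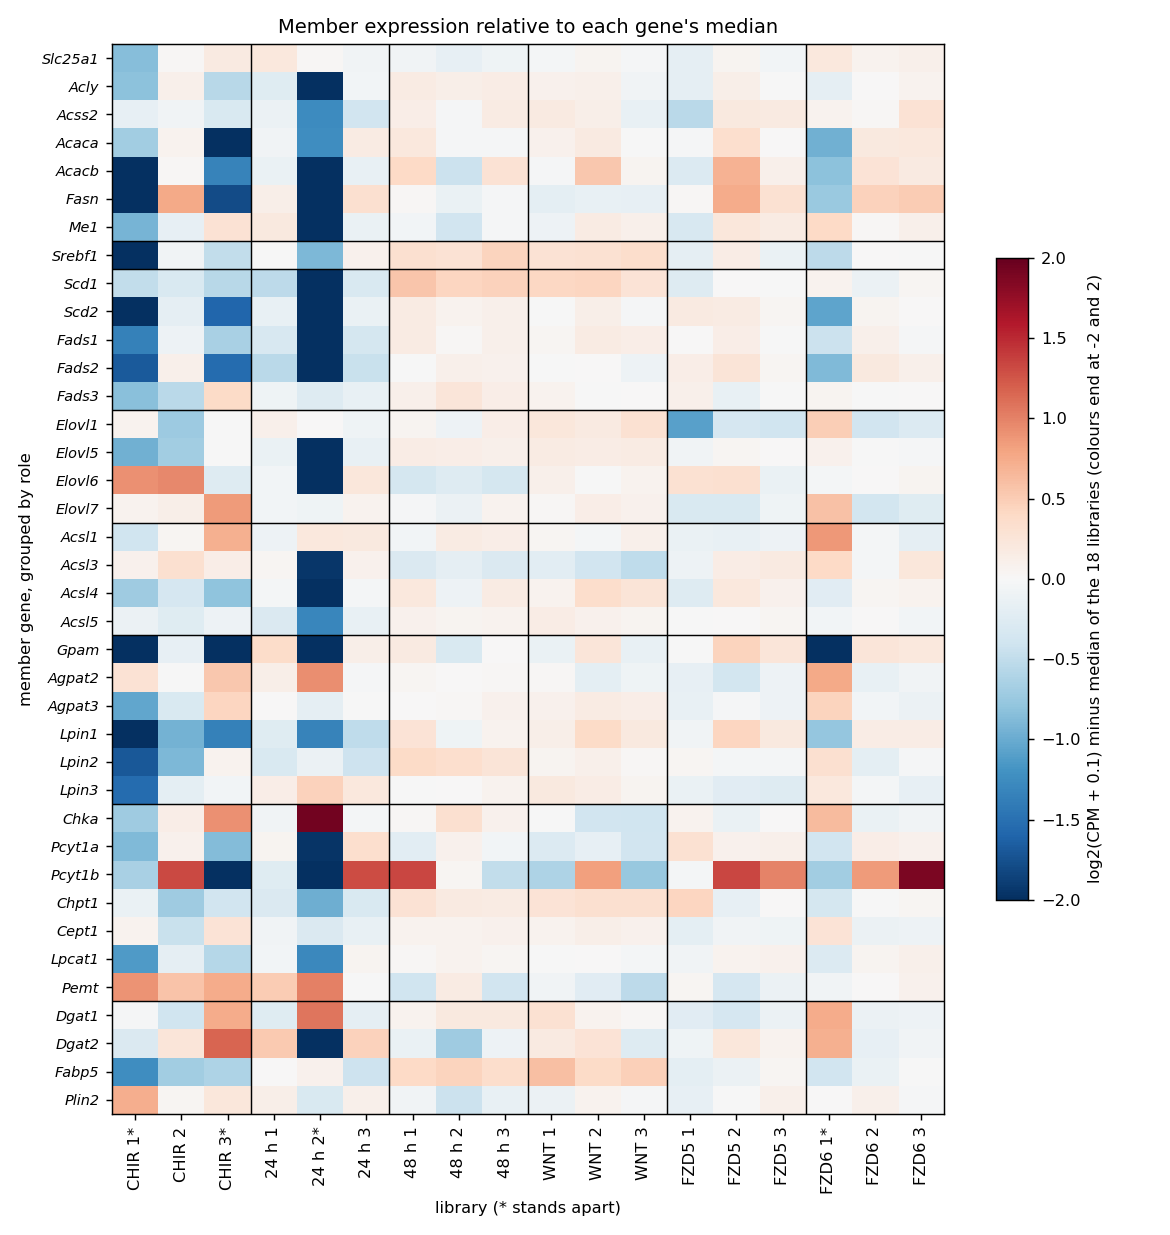
Each tested gene in each library as log2(CPM + 0.1) minus its median over the 18 libraries (blue lower, red higher), with genes grouped by role and an asterisk on the 4 libraries that stand apart. The columns of 24 h withdrawal 2 and CHIR 1 hold 30 of the 38 lowest values, a share that was not counted over all genes.

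Withdrawal of CHIR for 48 h was accompanied by more Fabp5 and Lpin1. Fabp5 averaged 443 ± 12.6 CPM after 48 h against 189.6 ± 41.9 CPM with CHIR (SD, n = 3 each; log2 fold change 1.23, SE 0.202, adjusted p = 0.00762 by edgeR's quasi-likelihood test with Benjamini-Hochberg adjustment over all genes). Lpin1 averaged 90.9 ± 11.2 CPM against 32.3 ± 12.7 CPM (SD, n = 3 each; log2 fold change 1.49, SE 0.331, adjusted p = 0.0268). These 2 were the only ones of the 38 called in this fit of 18 libraries, both higher, where 1.1% of all tested genes were called higher. The median log2 fold change was 0.41 over the 38 and -0.04 over all genes. Fabp5 kept its call whichever library was left out (highest adjusted p 0.047), and Lpin1 kept it in 14 of 18 such fits, losing it without CHIR 1 or any 1 of the 48 h libraries (highest adjusted p 0.127). The count of 2 became 12 without 24 h withdrawal 2, where the share of all genes called in either direction rose to 14.5%, and 4 without CHIR 3 (5.41%). It became 1 without CHIR 1 (1.16%) or any 1 of the 48 h libraries (0.334% to 0.509%). Neither was called in a fit of the 2 groups alone (0.851% of all genes), and DESeq2 called 4 of the 38 (8.49% of all genes). Alveolar type 1 markers moved with this comparison: 4 of 12 were called higher over the 18 libraries. Their summed level was 9764 to 10694 CPM after 48 h and 4581 to 8599 CPM with CHIR, and the part of this in the result was not tested.

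Against CHIR 2 alone, in the fit of 14 libraries, 16 of the 38 genes were called higher after 48 h and 3 lower, where 13.6% and 13.9% of all genes were called higher and lower. Those with the smallest p were Lpin2 (log2 fold change 1.25, SE 0.0987, adjusted p = 5.09e-07), Elovl5 (log2 fold change 0.85, SE 0.0798, adjusted p = 2.27e-06) and Elovl6 (log2 fold change -1.26, SE 0.164, adjusted p = 3.47e-05). Fabp5 (log2 fold change 1.12, SE 0.146, adjusted p = 3.84e-05), Fads3 (log2 fold change 0.73, SE 0.101, adjusted p = 6.76e-05) and Cept1 (log2 fold change 0.54, SE 0.0837, adjusted p = 0.000173) followed. The genes called lower were Elovl6, Acsl3 and Fasn. By role, 3 of 5 desaturases, 3 of 6 glycerol backbone genes and 3 of 7 phosphatidylcholine genes were called higher there, and 1 of 7 palmitate synthesis genes, Fasn, was called lower. Of the 12 alveolar type 1 markers 8 were called higher in the same fit, and of the 14 alveolar type 2 markers 8 higher and 3 lower. With 1 CHIR library in this fit, its p-values leave out how far CHIR libraries differ from each other.

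After 24 h of withdrawal none of the 38 genes was called against CHIR over 18 libraries (0% of all genes called). The 2 with the smallest p were Fabp5 (log2 fold change 0.74, SE 0.200, adjusted p = 0.197) and Lpin3 (log2 fold change 0.74, SE 0.276, adjusted p = 0.213). Against CHIR 2 alone, 5 were called higher and 2 lower in the fit of 14 libraries, where 2.75% and 1.74% of all genes were called. They were Elovl5 (log2 fold change 0.56, SE 0.0823, adjusted p = 0.00168), Lpin2 (log2 fold change 0.56, SE 0.0993, adjusted p = 0.00556), Fads3 (log2 fold change 0.44, SE 0.105, adjusted p = 0.0288), Cept1 and Agpat3 on the higher side. Fads2 (log2 fold change -0.58, SE 0.0985, adjusted p = 0.00441) and Elovl6 (log2 fold change -0.85, SE 0.178, adjusted p = 0.0149) were on the lower side. The fold changes of Elovl5 and Cept1 had the opposite sign over 18 libraries (-0.09 and -0.16).

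Between 24 h and 48 h of withdrawal, none of the 38 was called over 18 libraries (0.0485% of all genes called), with the smallest p for Chpt1 (log2 fold change 0.69, SE 0.221, adjusted p = 0.186) and Scd1 (log2 fold change 1.38, SE 0.475, adjusted p = 0.194). Without the 4 libraries, which leaves 2 against 3, 14 were called higher at 48 h and 3 lower, against 8.49% and 9.5% of all genes. All 5 desaturases were among the 14. The smallest p-values were those of Lpin2 (log2 fold change 0.69, SE 0.0736, adjusted p = 1.9e-05), Scd1 (log2 fold change 0.90, SE 0.101, adjusted p = 2.77e-05) and Fads2 (log2 fold change 0.57, SE 0.0762, adjusted p = 0.000137). Fads1 (log2 fold change 0.44, SE 0.0741, adjusted p = 0.000761), Fabp5 (log2 fold change 0.59, SE 0.109, adjusted p = 0.00155) and Elovl5 (log2 fold change 0.28, SE 0.0603, adjusted p = 0.00446) came next. Of the 7 palmitate synthesis genes 1 was called higher, Acly, and Fasn was not called. The 3 lower ones were Dgat2, Acsl3 and Plin2. The calls between 24 h and 48 h appear only in the fit without the 4 libraries. With any 1 of the 18 libraries left out, 24 h withdrawal 2 among them, 0 of the 38 were called. Over all genes 0 to 509 were called in those fits. The cause of this was not tested.

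Between WNT and 48 h of withdrawal, 11 of the 38 genes had groups that did not overlap, against 16.2% of all genes, with Fasn and Scd1 among them and lower with WNT. None of the 38 was called between the 2 groups over 18 or over 14 libraries (0% of all genes called in both, edgeR), and at an unadjusted p under 0.05 there were 0 (0.212% of all genes) and 5 (1344 of 17433 genes). DESeq2 called 0 over 18 libraries (0% of all genes). The smallest p over 18 libraries belonged to Plin2 (log2 fold change 0.18) and Lpin2 (-0.26). In the 14-library fit the 95% interval of the log2 difference was -0.28 to 0.09 for Scd1, -0.20 to 0.13 for Srebf1, -0.10 to 0.31 for Fabp5 and -0.39 to 0.17 for Fasn. An interval that holds 0 does not show that the groups were alike.

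Against CHIR, WNT gave the same 2 calls as 48 h withdrawal, and both comparisons use the same CHIR libraries. Fabp5 averaged 471 ± 35.8 CPM with WNT (SD, n = 3; log2 fold change 1.31, SE 0.203, adjusted p = 0.0072) and Lpin1 100.1 ± 9.596 CPM (SD, n = 3; log2 fold change 1.63, SE 0.332, adjusted p = 0.0211), where 0.873% of all genes were called higher. Fabp5 kept this call whichever library was left out (highest adjusted p 0.0472), and Lpin1 in 14 of 18 fits, losing it without CHIR 1 or any 1 of the WNT libraries (highest adjusted p 0.105). The count of 2 became 8 without 24 h withdrawal 2 (12% of all genes in either direction) and 4 without CHIR 3 (3.98%). It became 1 without CHIR 1 (0.866%) or any 1 of the WNT libraries (0.17% to 0.293%). Neither gene was called in a fit of WNT and CHIR alone (0.711% of all genes), and DESeq2 called 4 of the 38 (6.03% of all genes). Of the 12 alveolar type 1 markers 2 were called higher with WNT over the 18 libraries, with a summed level of 9458 to 9768 CPM against 4581 to 8599 CPM with CHIR, and the part of this in the result was not tested. Against CHIR 2 alone, 15 of the 38 were called higher and 4 lower in the fit of 14 libraries (13.6% and 13% of all genes). The smallest p-values were those of Elovl5 (log2 fold change 0.89, SE 0.0800, adjusted p = 1.95e-06), Lpin2 (adjusted p = 3.65e-06) and Fabp5 (log2 fold change 1.22, SE 0.147, adjusted p = 2.32e-05). The lower ones were Acsl3, Elovl6, Fasn and Pemt.

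Against 24 h withdrawal none of the 38 was called with WNT over 18 libraries (0.0303% of all genes), with the smallest p for Chpt1 (log2 fold change 0.79) and Fabp5 (log2 fold change 0.58, SE 0.200, adjusted p = 0.216). Over the 14 libraries, 12 were called higher and 2 lower (6.75% and 6.85% of all genes). Scd1 (log2 fold change 0.81, SE 0.101, adjusted p = 9.19e-05), Fads1 (log2 fold change 0.47, SE 0.0741, adjusted p = 0.000651) and Fads2 (log2 fold change 0.48, SE 0.0759, adjusted p = 0.000657) had the smallest p. Fabp5 (log2 fold change 0.70, SE 0.110, adjusted p = 0.000665), Lpin2 (log2 fold change 0.44, SE 0.0730, adjusted p = 0.000984) and Elovl5 (log2 fold change 0.32, SE 0.0603, adjusted p = 0.00226) followed, and Pcyt1a and Acsl3 were the lower ones.

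Scd1, Srebf1 and Fabp5 were lower in each FZD5 agonist library than in any library of 48 h withdrawal or WNT, but this was not called in the fit of 18 libraries. Of all tested genes, 15.6% lay lower in this way against 48 h withdrawal and 15.6% against WNT, and 16.8% and 17.2% lay higher. Among the 38, Elovl1, Elovl5, Acsl1, Acsl5, Agpat3, Lpin3, Cept1 and Dgat1 also lay below both groups, and Acsl3 and Pcyt1a lay above both. The FZD5 agonist, 48 h withdrawal and WNT groups hold none of the 4 libraries that stand apart, so a fit of 2 of these groups leaves those libraries out without dropping any of its own. In the fit of 18 libraries none of the 38 genes was called between the FZD5 agonist and 48 h withdrawal (0% of all genes), and 2 had an unadjusted p under 0.05. The smallest p there were those of Fabp5 (log2 fold change -0.49) and Elovl1 (-0.60). In the fit of these 2 groups alone, 5 were called lower and 2 higher with the FZD5 agonist, against 6.13% and 6.89% of all genes. Fabp5 averaged 317 ± 26.1 CPM with the agonist (log2 fold change -0.49, SE 0.0796, adjusted p = 0.00463), and the groups did not overlap. Scd1 averaged 47273 ± 4866 CPM against 70009 ± 2857 CPM after 48 h (SD, n = 3 each; log2 fold change -0.58, SE 0.119, adjusted p = 0.0137), also without overlap. Srebf1 averaged 645 ± 81.9 CPM against 855 ± 48.8 CPM (SD, n = 3 each; log2 fold change -0.42, SE 0.0993, adjusted p = 0.0242). Lpin2 (log2 fold change -0.35, SE 0.0693, adjusted p = 0.0116) and Dgat1 (log2 fold change -0.39, SE 0.0880, adjusted p = 0.019) were the others called lower. Acsl3 (log2 fold change 0.33, SE 0.0867, adjusted p = 0.0345) and Elovl6 (0.50, adjusted p = 0.0449) were called higher. The fit of 14 libraries called these 7 in the same directions and added Elovl1 and Cept1 as lower and Fasn as higher (log2 fold change 0.44, SE 0.129, adjusted p = 0.034), where 6.84% of all genes were called lower and 8.86% higher.

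Against WNT the picture for the FZD5 agonist was similar, and the agonist libraries are the same ones. None was called over 18 libraries (0% of all genes), with the smallest p for Fabp5 (log2 fold change -0.57) and Elovl1 (-0.81), and 2 had an unadjusted p under 0.05. In the fit of the 2 groups, 7 of the 38 were called lower with the FZD5 agonist and 3 higher, against 6.31% and 6.75% of all genes. The lower ones were Fabp5 (log2 fold change -0.58, SE 0.0893, adjusted p = 0.0042), Elovl1 (log2 fold change -0.82, SE 0.172, adjusted p = 0.017), Lpin3, Srebf1, Scd1, Elovl7 and Dgat1. The higher ones were Pcyt1a (log2 fold change 0.43, SE 0.0909, adjusted p = 0.015), Acsl3 (log2 fold change 0.44, SE 0.0998, adjusted p = 0.0202) and Fasn (0.55, adjusted p = 0.0471). In the 14-library fit 10 were called lower and 3 higher (7.92% and 8.74% of all genes). Fasn and Scd1 lay on opposite sides of 0 in this comparison. Among airway markers, Cyp2f2, a cytochrome of club cells, was at 561, 648 and 511 CPM after 48 h, 482, 484 and 522 CPM with WNT and 349.7, 131 and 147 CPM with the FZD5 agonist. Of its list mates Muc5b reached 27.9 CPM in those 9 libraries and the other 6, Scgb1a1 among them, 1.13 CPM at most, with Reg3g at 0 in all 9. In the 14-library fit 1 of 6 tested club and secretory markers was called lower with the FZD5 agonist in both comparisons, and 1 of 12 alveolar type 1 markers was called higher and 1 lower. Alveolar type 1 markers summed to 9764 to 10694 CPM after 48 h, 9458 to 9768 CPM with WNT and 7790 to 10154 CPM with the FZD5 agonist. Their part in these results was not tested.

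**Figure D4:**
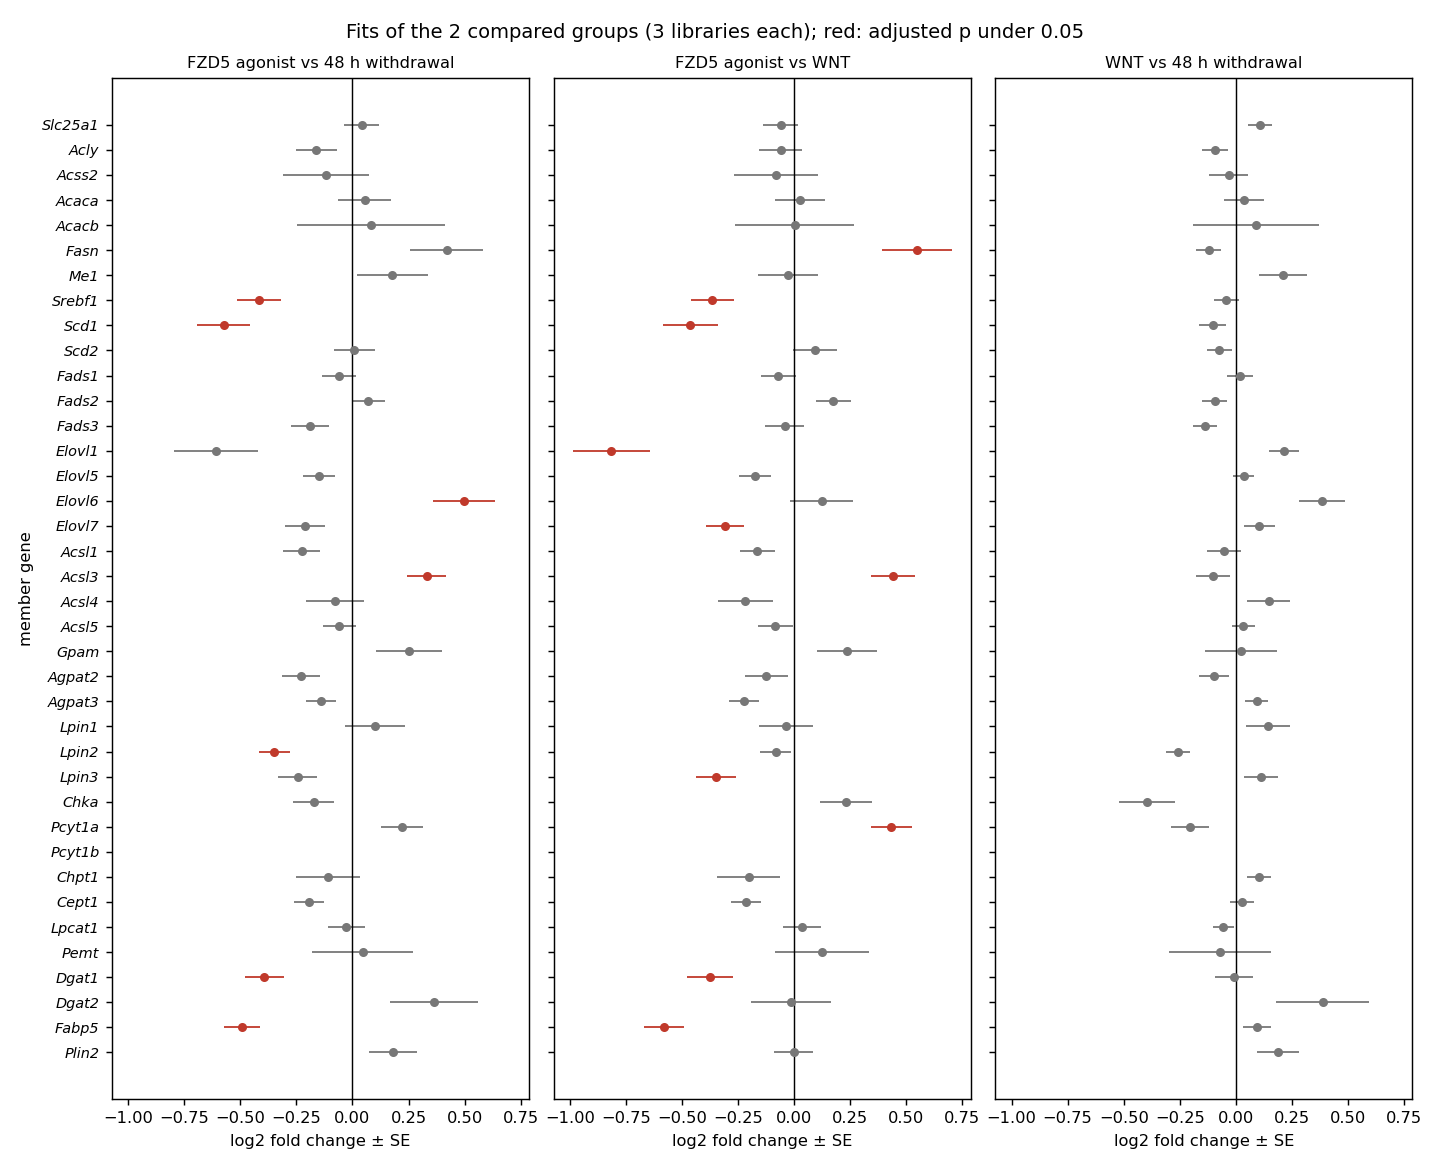
Log2 fold changes with SE (whiskers) for 37 genes in fits of only the 2 groups compared (3 libraries each), with adjusted p under 0.05 in red. Pcyt1b, near its detection limit, is not drawn. Red points for Scd1, Srebf1 and Fabp5 lie left of 0 in both comparisons of the FZD5 agonist, and the WNT against 48 h panel has no red point.

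Against 24 h withdrawal the FZD5 agonist gave no call among the 38 over 18 libraries (0.00606% of all genes). The smallest p belonged to Chpt1 (log2 fold change 0.59, SE 0.221, adjusted p = 0.217) and Lpin1 (log2 fold change 0.82, SE 0.326, adjusted p = 0.224). Over the 14 libraries 6 were called higher and 1 lower (2.37% and 1.86% of all genes). They were Fads2 (log2 fold change 0.66, SE 0.0763, adjusted p = 0.000324), Fads1 (log2 fold change 0.40, SE 0.0740, adjusted p = 0.00841), Lpin2 (log2 fold change 0.36, SE 0.0729, adjusted p = 0.0137), Lpin1 (log2 fold change 0.59, SE 0.139, adjusted p = 0.0317), Scd2 and Acsl5 as higher and Lpin3 (log2 fold change -0.36, SE 0.0878, adjusted p = 0.0315) as lower. Scd1 was not among them (log2 fold change 0.35, adjusted p = 0.0625, unadjusted 95% interval of the log2 difference 0.13 to 0.56).

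For the FZD6 agonist, 1 of the 3 libraries stands apart. Over 18 libraries none of the 38 genes was called against 24 h withdrawal (0% of all genes), 48 h withdrawal (0.0121%) or WNT (0%). The smallest p belonged to Acss2 (log2 fold change 0.64, SE 0.258, adjusted p = 0.261) and Acsl5 (log2 fold change 0.46, SE 0.235, adjusted p = 0.37) against 24 h, and to Fabp5 and Chpt1 against 48 h (log2 fold changes -0.57 and -0.30) and against WNT (-0.65 and -0.40). Over the 14 libraries, Fads2 (log2 fold change 0.65, SE 0.0824, adjusted p = 0.00124) and Fads1 (log2 fold change 0.39, SE 0.0803, adjusted p = 0.0407) were called higher than after 24 h and none lower, against 0.533% and 0.143% of all genes. Compared with 48 h withdrawal, 4 were called lower and 2 higher (4.73% and 7.42% of all genes). Lpin2 (log2 fold change -0.43, SE 0.0729, adjusted p = 0.000995), Scd1 (log2 fold change -0.51, SE 0.0997, adjusted p = 0.00294), Fabp5 (log2 fold change -0.46, SE 0.109, adjusted p = 0.0111) and Srebf1 (log2 fold change -0.35, SE 0.0879, adjusted p = 0.0155) were lower, and Fasn (log2 fold change 0.54, SE 0.143, adjusted p = 0.0256) and Acsl3 (log2 fold change 0.36, SE 0.100, adjusted p = 0.0298) higher. Compared with WNT, 6 were called lower and 3 higher (5.19% and 6.61% of all genes), led by Fabp5 (log2 fold change -0.56, SE 0.109, adjusted p = 0.00338), Acsl3 (log2 fold change 0.45, SE 0.100, adjusted p = 0.00825) and Elovl7 (log2 fold change -0.39, SE 0.0874, adjusted p = 0.00842).

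No difference between the FZD5 and FZD6 agonists was detected in any of the 38 genes. None was called over 18 libraries (0% of all genes, 0 at an unadjusted p under 0.05, and 0 by DESeq2) or over 14 (0.00574% of all genes, again 0 at an unadjusted p under 0.05). Over 18 libraries the smallest p were those of Elovl1 (log2 fold change -0.57) and Agpat2 (-0.45). In the 14-library fit, the 95% interval of the log2 difference of the FZD5 from the FZD6 agonist was -0.25 to 0.16 for Scd1, -0.24 to 0.22 for Fabp5, -0.24 to 0.35 for Lpin1 and -0.41 to 0.21 for Fasn. With 3 and 2 libraries, differences of the size of these intervals were not detectable, so alike levels were not shown.

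Against CHIR neither agonist gave a call among the 38 over 18 libraries (0.00606% of all genes in each). The 2 smallest p were those of Lpin1 (log2 fold change 1.60, SE 0.332, adjusted p = 0.076) and Fabp5 (log2 fold change 0.74, SE 0.200, adjusted p = 0.129) for the FZD5 agonist and of the same genes for the FZD6 agonist (log2 fold change 1.30, SE 0.329, adjusted p = 0.574 and log2 fold change 0.66, SE 0.200, adjusted p = 0.651). Against CHIR 2 alone, 9 were called higher and 1 lower with the FZD5 agonist (8% and 5.58% of all genes) and 7 higher and 2 lower with the FZD6 agonist (5.47% and 3.01%). Both lists were led by Lpin2 (log2 fold change 0.92, SE 0.0966, adjusted p = 3.4e-05 for FZD5 and log2 fold change 0.82, SE 0.100, adjusted p = 0.000167 for FZD6) and Elovl5 (log2 fold change 0.71, SE 0.0791, adjusted p = 4.93e-05 and log2 fold change 0.70, SE 0.0828, adjusted p = 0.000132). Fasn was not called in either. Over the 18 libraries, leaving out 24 h withdrawal 2 gave 4 calls for the FZD5 agonist (8.84% of all genes) and leaving out CHIR 2, CHIR 3 or FZD6 agonist 1 gave 1 (1.28%, 0.77% and 0.887%). Leaving out CHIR 3 gave 1 for the FZD6 agonist (0.229%).

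In the 13 comparisons with 0 calls over 18 libraries, the edgeR test gave an unadjusted p under 0.05 for 3 of the 38 genes in 24 h against CHIR (17% of all genes), 8 in 48 h against 24 h (18%) and 9 in WNT against 24 h (16.3%). It gave 5 in the FZD5 agonist against both 24 h (17.6%) and CHIR (13.5%) and 4 in the FZD6 agonist against CHIR (6.47%). It gave 2 in the FZD5 agonist against both 48 h (2.38%) and WNT (2.5%), 1 in the FZD6 agonist against each of 24 h (15.3%), 48 h (4.04%) and WNT (3.67%), and 0 in the rest (0.212% for WNT against 48 h and 0.994% for the 2 agonists). DESeq2 called 1 gene in 24 h against CHIR (2.76% of all genes), 1 in WNT against 24 h (2.15%), 3 and 1 in the FZD5 and FZD6 agonists against CHIR (4.45% and 0.478%), and 0 in the other 9 (0% to 3.37%).

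Across libraries, genes near to Fasn by Pearson correlation of log2 CPM over the 18 libraries were Asxl1 (r = 0.977), Camsap2 (0.976), Tnks (0.971) and Sp5 (0.968). Over the 14 libraries these were 0.808, 0.794, 0.757 and 0.835. Of the surfactant lipid genes, Pcyt1a (0.943), Scd2 (0.941) and Lpcat1 (0.925) were nearest to Fasn over 18 libraries, but over the 14 their r was 0.541, -0.27 and -0.02. Srebf1 and Scd1 had r = 0.688 and 0.711 with Fasn over the 18 and -0.58 for both over the 14. These values describe libraries that differ in depth and treatment, and 4 of them also differ in general from the rest.

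Neighbouring pathways were followed with 6 further lists of 104 genes. In the SREBP and lipogenic control list, all 14 genes were tested and none was called in any comparison over 18 libraries by edgeR (0% to 2.59% of all genes). At most 2 in a comparison had an unadjusted p under 0.05 (0.212% to 18% of all genes). In the 14-library fit, Insig1, which holds SREBP in the endoplasmic reticulum, was called higher after 48 h than after 24 h (log2 fold change 0.40, adjusted p = 0.00434). It was also called higher than after 24 h with WNT (log2 fold change 0.35, adjusted p = 0.0128), the FZD5 agonist (log2 fold change 0.53, adjusted p = 0.00385) and the FZD6 agonist (log2 fold change 0.49, adjusted p = 0.0221). Insig2, its relative, was lower with the FZD5 agonist than after 48 h (log2 fold change -0.38, adjusted p = 0.00556). In that comparison 1 of the 14 genes was called higher and 3 lower (8.86% and 6.84% of all genes).

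Of 16 fatty acid oxidation genes, none was called in any comparison over 18 libraries by edgeR (0% to 2.59% of all genes). At most 4 in a comparison had an unadjusted p under 0.05 (0.212% to 18% of all genes). In the 14-library fit, 7 were called lower and 0 higher with the FZD5 agonist than after 48 h (6.84% of all genes lower), and 7 lower and 0 higher than with WNT (7.92%). With the FZD6 agonist 5 and 4 were lower and 0 higher in the same comparisons (4.73% and 5.19%). They were led by Ppargc1a, a coactivator of mitochondrial genes, with the FZD5 agonist (log2 fold change -0.59, adjusted p = 0.00056 against 48 h) and with the FZD6 agonist (log2 fold change -0.70, adjusted p = 0.000507). Against CHIR 2 alone, 9 of the 16 were called higher after 48 h and 9 with WNT (13.6% of all genes in each), and none lower.

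Other lists moved in both directions. Over 18 libraries, Crls1, which makes cardiolipin, was called lower than with CHIR after 48 h (log2 fold change -1.14, adjusted p = 0.00594) and with WNT (log2 fold change -1.004, adjusted p = 0.0116). After 48 h the acyltransferase Agpat5 (log2 fold change -1.10, adjusted p = 0.0279), the mitochondrial malic enzyme Me2 (log2 fold change -1.36, adjusted p = 0.0268) and Mecr, of mitochondrial fatty acid synthesis (log2 fold change -0.96, adjusted p = 0.0416), were also called lower. These 4 were the only genes of the 6 lists called over 18 libraries. Of the 26 tested genes of other phospholipid and triglyceride synthesis, 2 were called lower and 0 higher there after 48 h. In that comparison 1.49% of all genes were called lower and 1.1% higher. Slc44a2, a choline transporter-like protein, led that list over the 14 against CHIR 2 (log2 fold change 1.19, adjusted p = 1.27e-06) and was also higher after 48 h than after 24 h (log2 fold change 0.53, adjusted p = 0.000287). Of 18 tested genes of other elongation and activation, Hacd3, a dehydratase of the elongation cycle, was lower after 48 h than after 24 h (log2 fold change -0.42, adjusted p = 0.00202) and higher with the FZD5 agonist than after 48 h (log2 fold change 0.41, adjusted p = 0.00131) over the 14. Of the 9 genes of NADPH supply, 1 was called higher and 2 lower after 48 h than in CHIR 2 (13.6% and 13.9% of all genes), and Me2 was higher with the FZD5 agonist than after 48 h (log2 fold change 0.54, adjusted p = 0.00145). In the list of uptake, droplets and lipolysis only 10 of 18 genes passed the filter, and Cideb, a lipid droplet protein, was lower with the FZD5 agonist than after 48 h (log2 fold change -0.74, adjusted p = 0.022).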

How the data were processed

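RNA from 18 libraries of cultured mouse alveolar type 2 cells, 3 in each of 6 groups, was sequenced after TruSeq Stranded Total RNA preparation from 0.1 µg of RNA, per the labels' protocols. The authors deposited whole-number read counts per gene with gene widths and RPKM values, 1 table a library. Reads were aligned with GSNAP to GRCm38, per the submitters' processing notes. GSNAP's version, the annotation, the counter and whether strand was used: not given in the sources used here. Therefore reads of overlapping or antisense genes and of near-identical copies may be shared. The authors' RPKM values were not tested. Gene symbols came from GENCODE M21 for 52403 of 52636 identifiers (99.6%), and promoters and motifs from RefSeq tables on GRCm38.p6.

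Counts were tested with edgeR 4.0.16 in R 4.3.3 (TMM scaling, filterByExpr by group, robust quasi-likelihood, 1 fit of the 18 libraries, 16497 genes). There were 15 comparisons, each adjusted by Benjamini-Hochberg over all genes and called at an adjusted p under 0.05. The SE of a log2 fold change is its size over the square root of the F statistic, and intervals are at 95%. CPM values use TMM-scaled library sizes, and the interval of a single count is not given since libraries differ by more than counting error. In the 18 pairs of libraries within groups, chi-square over its degrees of freedom was 7.08 to 1118, so none was a duplicate. Alternatives were DESeq2 1.42.0, RLE factors, other filters, mitochondrial and ribosomal RNA genes left out, only the compared groups, a replicate block, no library that stands apart (17433 genes) and each library left out. The script was tested on simulated counts.

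Full statistics are given for up to 6 called genes with the smallest p in a comparison, or the 2 smallest where fewer were called, and for up to 2 genes of each pathway list. Per-library values are given for 13 genes chosen by name and for Lpin1. Likeness to Fasn is given for the genes with the highest correlation over the 18 libraries, of which 1 is not reported here. The genes, lists and alternatives were chosen with earlier results of these data known.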

Additional observations from a re-analysis of the deposited data

How the results depend on the processing

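Over all 18 libraries 2 of the 38 genes were called in 48 h withdrawal against CHIR (2.59% of all genes in either direction) and 2 in WNT against CHIR (1.92%). In the other 13 comparisons 0 were called (0% to 0.0485%). These counts were the same with RLE factors, no low count filter, a filter of 1 CPM in 3 libraries, mitochondrial and ribosomal RNA genes left out, and a replicate block. Under the block Fabp5 and Lpin1 kept both calls (adjusted p = 0.018 and 0.046 for 48 h withdrawal, 0.018 and 0.038 for WNT). Deviations of same-numbered libraries had a median correlation of -0.09, -0.07 and 0.00 over 15 pairs for each number. Single pairs ran from -0.31 to 0.10, from -0.28 to 0.47 and from -0.52 to 0.12. These pairs include the 4 libraries that stand apart, and whether the numbers pair the libraries was not tested without them.

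Leaving out the 4 libraries that stand apart moved the counts against CHIR to 7 (24 h), 19 (48 h), 19 (WNT), 10 (FZD5 agonist) and 9 (FZD6 agonist). Against 24 h withdrawal the counts moved to 17 (48 h, 18% of all genes), 14 (WNT, 13.6%), 7 (FZD5 agonist, 4.23%) and 2 (FZD6 agonist, 0.677%). Against 48 h they moved to 10 and 6 (15.7% and 12.1% of all genes) for the FZD5 and FZD6 agonists. Against WNT they moved to 13 and 9 (16.7% and 11.8%). In fits of only the compared groups, 0 were called in 48 h withdrawal and in WNT against CHIR (0.851% and 0.711% of all genes). In those fits 7 were called in the FZD5 agonist against 48 h (13%) and 10 in the FZD5 agonist against WNT (13.1%). DESeq2 called 4 in 48 h withdrawal and in WNT against CHIR (8.49% and 6.03% of all genes) and 3 in the FZD5 agonist against CHIR (4.45%). It called 1 each in 24 h withdrawal against CHIR (2.76%), the FZD6 agonist against CHIR (0.478%) and WNT against 24 h (2.15%). The cause of these shifts was not tested.

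With 1 library left out in turn, the count in 48 h withdrawal against CHIR ran from 1 to 12, in WNT against CHIR from 1 to 8, in the FZD5 agonist against CHIR from 0 to 4 and in the FZD6 agonist against CHIR from 0 to 1. The counts of 12 and 8 arose without 24 h withdrawal 2 (14.5% and 12% of all genes), and leaving out CHIR 3 gave 4 in both (5.41% and 3.98%).

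Some fold changes that were not called reversed. In 24 h withdrawal against CHIR, Elovl5 was -0.09 over 18 libraries and 0.56 without the 4, with a range of -0.39 to 0.35 when 1 library was left out, and Cept1 was -0.16 and 0.36. When 1 library was left out, log2 fold changes ran from -0.70 to 0.55 for Fads2 and from -0.15 to 0.52 for Fads3 in that comparison. They ran from -0.088 to 0.24 for Cept1 in 48 h withdrawal against CHIR, from -0.064 to 0.27 for Cept1 in WNT against CHIR, from -0.38 to 0.15 for Elovl7 in the FZD6 agonist against WNT and from -0.0044 to 0.66 for Fads3 in the FZD5 agonist against CHIR. With 3 libraries a group, 4 of 18 of them apart from the rest, smaller differences could not be detected.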
